A study of Mus musculus with 10 samples.

Results

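The 6 genes of the platelet-derived growth factor (PDGF) system, the ligand genes *Pdgfa*, *Pdgfb*, *Pdgfc* and *Pdgfd* and the receptor genes *Pdgfra* and *Pdgfrb*, were examined in ATAC-seq peak lists of the embryonic mouse epicardium and of epicardium-derived cells (EPDCs). Members were every peak summit lying inside 1 of these genes or within 50 kb of it on mm10, and a promoter summit was defined as lying within 1 kb of the annotated start. The rule took 6 of 21911 protein-coding genes and 886 of 1071660 summits. After overlapping summits were reduced to fixed regions of 250 bp on each side of a summit, it left 142 of 184764 regions.

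ATAC-seq marks open chromatin by the insertion of a transposase, so a peak locates DNA that was accessible in many of the sorted cells. All cells came from pooled littermate hearts of Rosa26tdTomato;Wt1CreERT2/+ mouse embryos (C57BL/6J), whose mothers received tamoxifen at E9.5, so that only cells with active *Wt1* at that time, and their descendants, carried tdTomato. The epicardial cells (CD31-tdTomato+PDPN+) came from E11.5 hearts (3 libraries, 6 hearts each) and E17.5 hearts (3 libraries, 4 hearts each). The EPDCs (CD31-tdTomato+PDPN-) came from E12.5 (1 library) and E13.5 hearts (2 libraries). In 1 of the E13.5 libraries, named sample 2, the technical replicates shared 1 peak list and counted as 1 library. EPDCs and epicardial cells were therefore never taken at the same stage, and population and stage cannot be told apart.

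PDGF ligands are secreted dimers that activate a pair of receptor tyrosine kinases. PDGF-A and PDGF-C act mainly through PDGFRα and PDGF-B and PDGF-D through PDGFRβ, and PDGF-C and PDGF-D become active only after proteases remove their CUB domains. In the heart, epicardial cells that leave the surface layer become fibroblasts, which are known to need PDGFRα, and coronary mural cells, which are known to need PDGFRβ.

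Each region was given a rank score in each library. Summits were ranked by the −log10 p of the peak caller, the strongest scored 100, and every further rank lowered the score by the same step in every library, so that the last summit of the longest list scored near 0 and the last summit of the shortest list 33.5. A score of 0 means that no summit was called within 250 bp of the region's centre, which does not show that the chromatin was closed. A region was called higher or lower when every library of one group scored above every library of the other. No replicate count per region exists in peak lists, so a two-sided permutation of the libraries, enumerated exactly, served for single regions, and its smallest p is 0.10 for the 2 epicardial stages (3 against 3) and 0.0119 for EPDCs against all 6 epicardial libraries. For a region named because its difference was among the largest, that p follows in part from the choice and only describes how far the groups lay apart.

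Sequences of some of the called regions are shown first. Regions near *Pdgfrb*, which held the 3 largest differences with EPDCs higher, are not among these sequences. Each is the central 201 bases of a distal region in mm10, on the plus strand, in lower case, with capitals on matches to 9 short motifs searched on both strands as exact letters. The motifs were AP-1 (TGACTCA), TEAD (GGAATG), the letters AGATAA known from the GATA family, a TCF21-type E-box (CAGCTG), T-box (AGGTGTGA), a WT1-type motif (GTGGGAG), SP/KLF (GGGCGG), RUNX (TGTGGTT) and the SRF CArG box. Regions are named by their distance from the annotated start of the gene, negative upstream and positive in the direction of transcription. The first group held regions that ranked lower in EPDCs than in the epicardium, at chr15:80024420-80024620 and chr15:80062906-80063106 near *Pdgfb* and at chr5:139010766-139010966 near *Pdgfa*.
Pdgfb −9.5 kb: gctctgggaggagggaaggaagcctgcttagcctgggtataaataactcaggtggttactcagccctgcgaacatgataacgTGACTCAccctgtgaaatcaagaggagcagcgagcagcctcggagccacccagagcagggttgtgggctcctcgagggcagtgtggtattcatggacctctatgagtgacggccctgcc
Pdgfb −48.0 kb: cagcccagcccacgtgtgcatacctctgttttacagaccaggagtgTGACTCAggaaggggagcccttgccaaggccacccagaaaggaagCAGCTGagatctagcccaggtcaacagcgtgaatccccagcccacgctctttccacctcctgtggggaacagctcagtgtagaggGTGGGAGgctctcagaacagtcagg
Pdgfa −13.5 kb: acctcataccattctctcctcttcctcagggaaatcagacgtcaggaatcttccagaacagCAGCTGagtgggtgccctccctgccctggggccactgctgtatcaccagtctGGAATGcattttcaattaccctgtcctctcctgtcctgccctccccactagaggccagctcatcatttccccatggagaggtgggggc

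The second group held regions called in every E11.5 and in no E17.5 epicardial library, in introns of *Pdgfc* (chr3:81058661-81058861) and *Pdgfd* (chr9:6286816-6287016) and downstream of *Pdgfd* (chr9:6408064-6408264).
Pdgfc +22.3 kb: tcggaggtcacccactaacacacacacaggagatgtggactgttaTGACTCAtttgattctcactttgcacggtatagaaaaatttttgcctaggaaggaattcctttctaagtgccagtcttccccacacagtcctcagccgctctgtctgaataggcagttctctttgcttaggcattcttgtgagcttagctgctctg
Pdgfd +118.3 kb: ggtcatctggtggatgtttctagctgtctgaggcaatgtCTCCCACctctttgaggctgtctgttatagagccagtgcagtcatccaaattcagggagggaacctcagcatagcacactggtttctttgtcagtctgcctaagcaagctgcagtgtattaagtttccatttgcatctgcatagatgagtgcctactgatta
Pdgfd +239.6 kb: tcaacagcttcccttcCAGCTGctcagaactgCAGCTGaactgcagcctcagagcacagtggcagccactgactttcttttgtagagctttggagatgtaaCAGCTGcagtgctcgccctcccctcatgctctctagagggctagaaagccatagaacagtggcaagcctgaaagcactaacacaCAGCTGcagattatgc

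The third group held the stronger 2 of 3 *Pdgfra* intron regions called in every E17.5 library and in no other library (chr5:75184199-75184399 and chr5:75185708-75185908).
Pdgfra +32.0 kb: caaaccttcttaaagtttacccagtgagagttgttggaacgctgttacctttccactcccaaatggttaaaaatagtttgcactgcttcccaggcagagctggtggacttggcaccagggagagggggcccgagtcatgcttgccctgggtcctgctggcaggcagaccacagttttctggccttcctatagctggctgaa
Pdgfra +33.5 kb: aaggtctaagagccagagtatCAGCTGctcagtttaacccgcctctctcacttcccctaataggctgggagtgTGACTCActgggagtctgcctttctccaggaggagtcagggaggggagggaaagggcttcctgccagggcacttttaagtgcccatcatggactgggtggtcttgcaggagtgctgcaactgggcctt

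In these windows AP-1 letters stood in Pdgfb −9.5 kb (position 83 from the 5′ end), Pdgfb −48.0 kb (position 47), Pdgfc +22.3 kb (position 46) and Pdgfra +33.5 kb (position 74). Among all 184764 regions, 23085 held these letters in the same central window, and among the 142 regions near the PDGF genes 21 (14.8%) did. The E-box letters stood in Pdgfa −13.5 kb, Pdgfb −48.0 kb, Pdgfra +33.5 kb and, in 4 copies, in Pdgfd +239.6 kb, against 18.9% of all regions and 21.8% of those near the PDGF genes. TEAD letters stood in Pdgfa −13.5 kb (19.2% of all regions) and WT1-type letters in Pdgfb −48.0 kb and Pdgfd +118.3 kb (8.3% of all regions). Pdgfra +32.0 kb held none of the 9. These matches are descriptions of letters and not of bound sites.

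The libraries held 94909 to 142743 summits, of which 73 to 120 belonged to the PDGF genes, and the genome background recovered from the lists was 2.07 to 10.9 fragments per position. This background was 10.9 in EPDC E13.5 sample 2 and at most 4.26 in any other library, and fragment numbers below are not scaled for it. The 3 EPDC lists held 252 to 268 further summits on mitochondrial and unplaced sequences, and the 6 epicardial lists held none, and the part of this difference in the comparisons was not tested. The cell labels were read from promoters of marker genes. The promoter of *Upk3b*, a gene of the mesothelial surface, scored 98.4 ± 0.5 (SD, n = 6) in the epicardium and 57.7 ± 20.7 (n = 3) in EPDCs, and that of *Postn*, a mesenchymal matrix gene, scored 0 in every E11.5 library, 58.7 ± 4.0 at E17.5 and 82.4 ± 2.3 in EPDCs. In the lists these genes come from, 2 of 9 epicardial markers (*Upk3b* and *Krt8*) were lower and none higher in EPDCs, and of 6 mesenchymal markers *Postn* was higher and *Dcn* lower, where 9.79% of all promoters were higher and 10.4% lower. Between stages 4 of the 6 mesenchymal markers were higher and 2, *Col1a1* and *Dcn*, lower at E17.5, against 23.9% and 16.9% of all promoters. The promoters of *Wt1*, *Tbx18*, *Tcf21* and the sort marker *Pdpn* were not called between populations. Of 6 endothelial markers 4, among them *Pecam1* and *Cdh5*, had no promoter summit in any library, whereas *Kdr* (91.7 on average) and *Tek* (86.4) were called in all 9, *Kdr* higher in EPDCs. Of 6 cardiomyocyte markers, *Tnnt2*, *Actn2*, *Nkx2-5* and *Ryr2* were called in all 9, *Tnnt2* and *Actn2* lower at E17.5, and 2 in none. Of 6 blood markers 5 were called in none, and *Cd68* was higher at E17.5 and lower in EPDCs. Summed scores of the 9 epicardial markers ranged from 532.9 to 607.3 at E11.5, from 793.7 to 816.0 at E17.5 and from 509.4 to 582.8 in EPDCs. Between stages 4 of these 9 (*Msln*, *Krt19*, *Krt8* and *Aldh1a2*) were higher at E17.5 and 4 (*Wt1*, *Upk3b*, *Tcf21* and *Pdpn*) lower. Their median difference was −0.8, so the larger sum at E17.5 came from part of the list. Summed scores of the 6 mesenchymal and fibroblast markers ranged from 327.0 to 391.6 at E11.5, from 449.0 to 462.4 at E17.5 and from 488.7 to 517.5 in EPDCs, and those of the 8 mural markers from 666.5 to 683.0, from 581.5 to 604.7 and from 683.6 to 702.9. Of the mural markers 5 were lower and none higher at E17.5, and 2 were higher and none lower in EPDCs. In bulk chromatin, a change in the share of cells with an open element and a change in its opening per cell cannot be told apart.

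Regions near the PDGF genes changed between stages about as often as regions elsewhere. Of 130 regions called in at least 1 epicardial library, 24 (18.5%) ranked higher in every E17.5 than in every E11.5 library and 31 (23.8%) ranked lower. Over the genome 18.2% of 160374 regions were higher and 26% lower, so the shares of the PDGF regions stood near the background. The median difference in rank score was −2.81 near the PDGF genes and −2.67 over all regions. Ranking by fold enrichment gave 31 higher and 24 lower in place of 24 and 31 (18.7% and 22.7% of all regions), and the depth-normalized score gave 17 and 33 (17.7% and 28.1%), so the split between directions depends on the scale.

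The loci differed in how their calls were divided. *Pdgfd* had 2 of 19 regions higher and 10 lower (52.6%) at E17.5, and 9 of its regions were called in all E11.5 and in no E17.5 library, out of 21 such regions over the 6 genes and 10.4% of regions in the genome. Some of these regions scored below 33.5 at E11.5, where the shortest list, that of E17.5 replicate 1, held no summits. With equal numbers of the strongest summits in every library, 1 of 15 *Pdgfd* regions was higher and 6 lower (21.2% and 24.4% of all regions), and 5 were called in all E11.5 and no E17.5 library. *Pdgfb* lay on the other side, with 5 of 19 higher and 1 lower. *Pdgfa* had 5 of 23 higher and 3 lower, *Pdgfc* 2 of 16 and 4, *Pdgfra* 3 of 19 and 6, and *Pdgfrb* 7 of 34 and 7. Ranked by fold enrichment, *Pdgfra* had 5 higher and 3 lower, *Pdgfrb* 10 and 5 and *Pdgfc* 2 and 2 (18.7% and 22.7% of all regions). On the depth-normalized score *Pdgfrb* had 3 and 7 (17.7% and 28.1%), whereas *Pdgfd* kept 2 and 10 on both scales. In every E17.5 and no E11.5 library 6 regions were called, 3 of them in *Pdgfra*, against 4.39% of all regions.

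**Figure D1:**
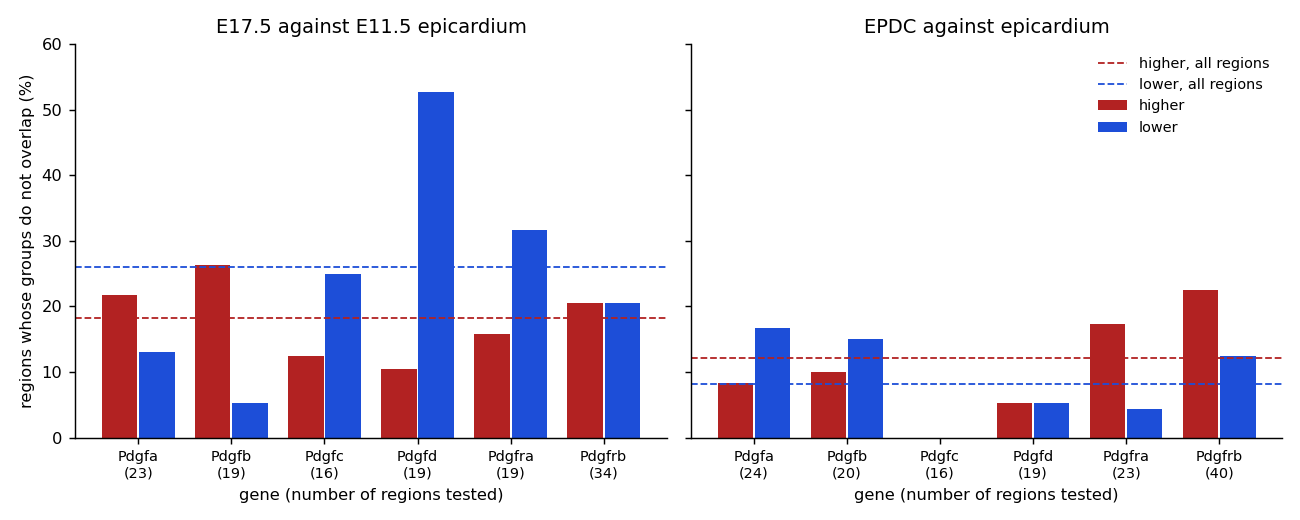
Share of regions (percent, vertical axes from 0) in each gene's locus whose groups of libraries did not overlap, higher in red and lower in blue, for E17.5 against E11.5 epicardium (left) and EPDC against epicardium (right), with dashed lines at the share over all regions. *Pdgfd* reaches 52.6% lower at E17.5 against a dashed line at 26%, and *Pdgfrb* 22.5% higher in EPDCs against 12.1%.

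Between EPDCs and epicardium, 18 of 142 regions (12.7%) ranked higher in every EPDC library than in every epicardial library and 14 (9.86%) ranked lower. Over all 184764 regions 12.1% were higher and 8.22% lower. On the scale of log2 fragments over genome background the split was 11 higher and 26 lower (7.2% and 12.7% of all regions), on the depth-normalized score it was 15 and 20 (10% and 9.8%), and on the fragment scale regions called in all 9 libraries stood lower in EPDCs by a median of −0.45 throughout the genome. On the rank score the receptor loci held most of the higher regions. *Pdgfrb* had 9 of 40 higher and 5 lower and *Pdgfra* 4 of 23 higher and 1 lower, against 2 and 4 of 24 at *Pdgfa*, 2 and 3 of 20 at *Pdgfb*, none in either direction of 16 at *Pdgfc*, and 1 and 1 of 19 at *Pdgfd*. Ranked by fold enrichment, 8 were higher at *Pdgfrb*, 2 at *Pdgfra*, 5 at *Pdgfa*, 2 at *Pdgfb* and 1 at *Pdgfd*, so this split depends on the scale. Of the higher *Pdgfrb* regions, those at −38.7, −22.0 and +75.5 kb lay inside *Slc6a7*, *Cdx1* and *Csf1r*. The higher *Pdgfra* region at −42.8 kb lay nearer to *Gsx2*. In all EPDC and no epicardial library 4 regions were called, against 3.23% of all regions. These were 2 at *Pdgfrb*, 1 at *Pdgfra* and 1 at *Pdgfb*.

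**Figure D2:**
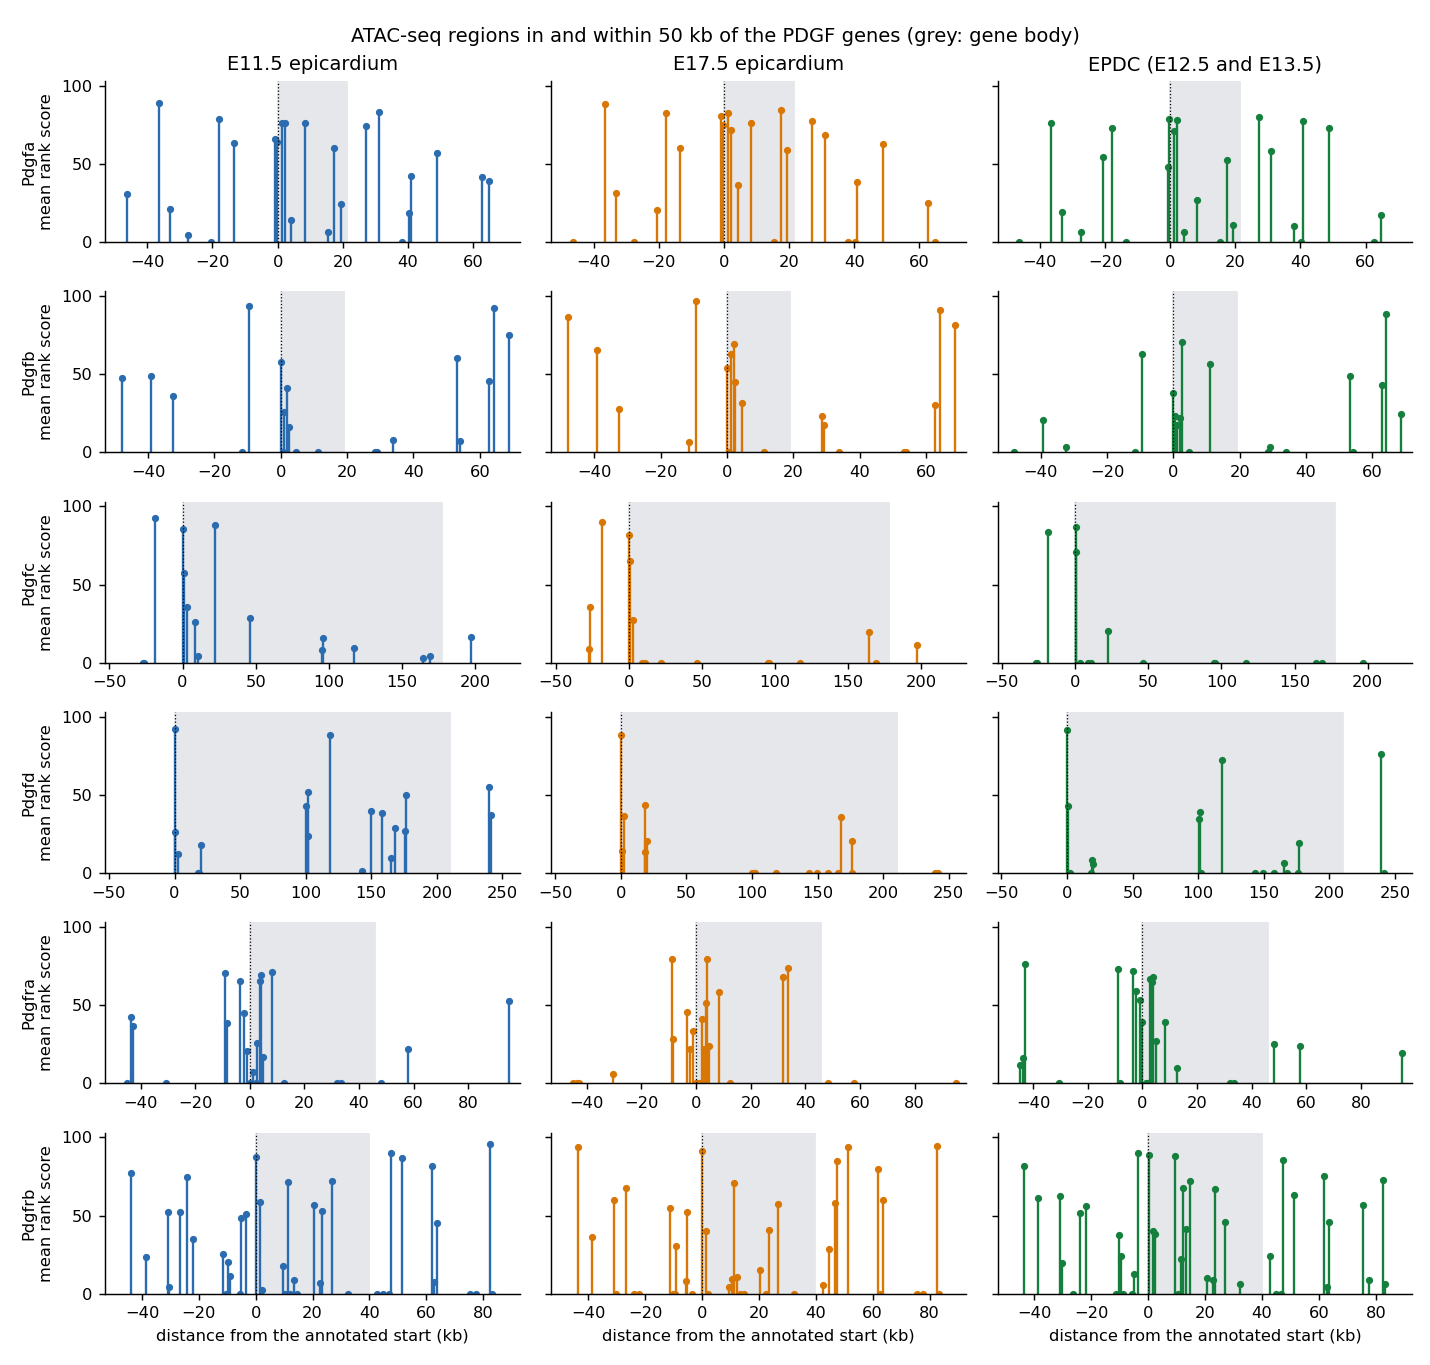
Mean rank score (0 to 100, vertical axes) of every region in and within 50 kb of each gene by distance from the annotated start (kb, horizontal axes, in the direction of transcription) in E11.5 epicardium (blue, n = 3), E17.5 epicardium (orange, n = 3) and EPDCs (green, n = 3), with the gene body in grey. Several *Pdgfd* regions beyond 100 kb carry a score at E11.5 and 0 at E17.5, and the *Pdgfrb* regions at 9.5, 12.2 and 14.6 kb score 61.1 to 90.3 in EPDCs and at most 32.0 in any epicardial library.

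The 142 regions comprised 24 at *Pdgfa*, 20 at *Pdgfb*, 16 at *Pdgfc*, 19 at *Pdgfd*, 23 at *Pdgfra* and 40 at *Pdgfrb*. They lay in introns (80), between genes (52) and in exons (10). All 9 libraries called 33 of them, 11 at *Pdgfa* and 10 at *Pdgfrb* but 1 at *Pdgfd*, and 19 were called in 1 library, against 24.7% and 16.6% of all regions. For 52 regions the nearest coding start was that of another gene, 26 at *Pdgfrb* (mainly *Csf1r*, *Slc6a7* and *Cdx1*), 13 at *Pdgfd* (*Ddi1*, a gene nested in its intron) and 10 at *Pdgfb*, so distance alone does not assign these to the PDGF gene. The median GC content of the regions was 53.1%, against 48.3% for all regions.

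In all, 11 regions lay within 1 kb of an annotated start, and the promoter of a gene is here the one with the highest mean score. Of these 6 promoters, those of *Pdgfc*, *Pdgfd* and *Pdgfrb* ranked high in every library, between 77.5 and 93.3, and that of *Pdgfra* had the lowest mean over the 9 libraries, although in each EPDC library that of *Pdgfb* was lower. The *Pdgfd* promoter scored 92.2, 91.7 and 93.3 at E11.5, 89.6, 85.5 and 89.0 at E17.5 and 92.8, 91.6 and 91.1 in EPDCs. The *Pdgfrb* promoter scored 87.9, 84.9 and 90.3 at E11.5, 92.6, 89.1 and 91.7 at E17.5 and 89.5, 89.3 and 87.5 in EPDCs. In the order of means, *Pdgfd* (90.7 ± 2.4 SD, n = 9) and *Pdgfrb* (89.2 ± 2.3) overlapped, as did *Pdgfrb* and *Pdgfc* (84.6 ± 3.2), followed by *Pdgfa* (72.6 ± 7.5), *Pdgfb* (49.7 ± 11.4) and *Pdgfra* (35.9 ± 22.4).

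Between stages 1 promoter of the 6 was higher (*Pdgfa*) and 2 were lower (*Pdgfc* and *Pdgfd*) at E17.5, where 23.9% of 14578 promoters of protein-coding genes with a summit in an epicardial library were higher and 16.9% lower. The *Pdgfa* promoter region scored 64.6, 59.9 and 67.3 at E11.5, against 80.6, 75.5 and 69.2 at E17.5 (difference 11.2, exact permutation p = 0.10, the smallest possible). The groups did not overlap, but on the depth-normalized score they did. The differences at *Pdgfd* (−4.4) and *Pdgfc* (−3.7) were small, and on the scale of fragments over background the groups overlapped for both genes. Between EPDCs and epicardium none of the 6 was called in either direction, where 9.79% of 15109 promoters were higher and 10.4% lower. Ranked by fold enrichment, the *Pdgfa* promoter stood above every epicardial library in EPDCs, and on the depth-normalized score and on fragments over background the *Pdgfb* promoter stood below. Among the 5 weaker regions within 1 kb of a start, named after their values were seen, that of *Pdgfa* at −0.8 kb was lower in EPDCs and higher at E17.5, that of *Pdgfra* at −0.1 kb was higher in EPDCs, and that of *Pdgfc* at +0.9 kb was higher at E17.5. The *Pdgfa* region at −0.8 kb scored 65.6, 61.0 and 71.7 at E11.5, 79.9, 80.6 and 80.8 at E17.5 and 56.1, 41.8 and 45.5 in EPDCs, whose mean differed from that of the epicardium by −25.5.

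**Figure D3:**
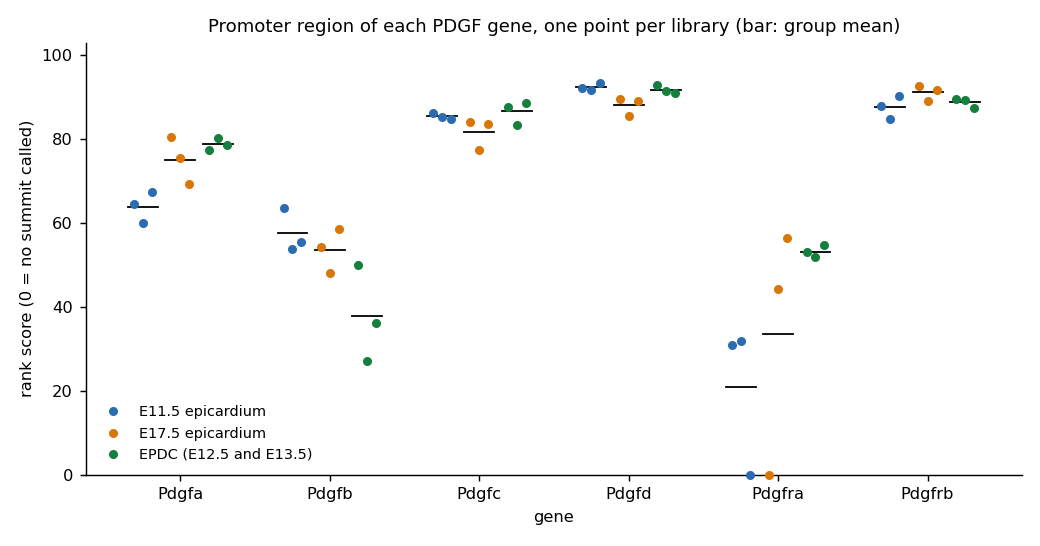
Rank score (vertical axis, 0 where no summit was called) of the promoter region of each PDGF gene (horizontal axis), with 1 point per library and a bar at the group mean, for E11.5 epicardium, E17.5 epicardium and EPDCs. Points of the *Pdgfc*, *Pdgfd* and *Pdgfrb* promoters lie between 77.5 and 93.3, and those of *Pdgfra* spread from 0 to 56.5.

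Among the ligands, *Pdgfa* (chr5:138976014-138997370, minus strand) had the most regions with a summit in all 9 libraries, 11 of 24. Its region 36.5 kb upstream, in an intron of *Prkar1b*, scored 87.0, 88.2 and 91.0 at E11.5, 87.8, 87.0 and 90.6 at E17.5 and 82.7, 76.4 and 69.9 in EPDCs. Every EPDC library stood below every epicardial library there (difference −12.3, exact permutation p = 0.0119), but the groups overlapped when summits were ranked by fold enrichment. The upstream region at −13.5 kb, whose sequence is printed with the first group, was called at 63.7, 61.0 and 64.6 at E11.5, against 69.9, 46.0 and 64.9 at E17.5 and in no EPDC library (exact permutation p = 0.0119). The fragments at its summit numbered 51, 56 and 50 at E11.5, against 32, 39 and 48 at E17.5.

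Further *Pdgfa* regions, singled out after their values were seen, moved with stage or population in different directions. The region 17.4 kb into the gene (chr5:138979762-138980262, intron) scored 53.3, 63.1 and 64.5 at E11.5, 87.0, 82.3 and 84.2 at E17.5 and 61.7, 47.3 and 47.8 in EPDCs, so that E17.5 stood alone at the top. The region 40.8 kb downstream of the start, beyond the end of the gene (chr5:138956324-138956824), scored 42.8, 44.2 and 39.3 at E11.5, 34.9, 33.2 and 47.6 at E17.5 and 76.5, 77.6 and 78.7 in EPDCs. The region 2.2 kb into the gene was called in all 9 libraries between 64.7 and 81.2 with overlapping groups. The regions at −17.9 kb and +27.2 kb, which the naming rule chose for their high mean, were also called in all 9 libraries, between 65.8 and 83.3 and between 73.3 and 81.7.

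*Pdgfb* (chr15:79995874-80014977, minus strand), the ligand best known for recruiting mural cells, had its highest-ranked epicardial region 9.5 kb upstream of its start. That region scored 92.2, 95.1 and 94.3 at E11.5, 96.0, 97.6 and 97.2 at E17.5 and 78.9, 53.8 and 56.4 in EPDCs. All 3 EPDC libraries lay below all 6 epicardial ones (difference −32.4, exact permutation p = 0.0119). The small rise from E11.5 to E17.5 (3.1) was lost when summits were ranked by fold enrichment.

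The region 48.0 kb upstream of *Pdgfb* separated all 3 groups, although the coding start of *Syngr1* lay nearer, at 28.3 kb. It scored 49.0, 59.6 and 34.9 at E11.5, with 29, 43 and 24 fragments at the summit, and 83.8, 90.7 and 85.6 at E17.5, with 57, 159 and 102 fragments. No EPDC library called it. The E17.5 libraries stood above the E11.5 libraries by 38.8 (exact permutation p = 0.10), and EPDCs below the epicardium by 67.3 on average (p = 0.0119, exact permutation).

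In the body of *Pdgfb*, 3 regions chosen after their values were seen ran in other directions. The intronic region 11.2 kb from the start (chr15:80003552-80004052) was called at 54.3, 58.1 and 57.3 in EPDCs, with 27, 35 and 83 fragments, and in no epicardial library. The region 1.1 kb into the gene scored 42.4, 27.8 and 8.1 at E11.5, against 58.1, 65.7 and 64.9 at E17.5, and the region at 2.5 kb reached 71.6, 68.1 and 71.8 in EPDCs against 0 to 59.1 in the epicardium. The *Pdgfb* promoter itself scored 63.5, 53.9 and 55.6 at E11.5, 54.3, 48.1 and 58.7 at E17.5 and 50.1, 27.2 and 36.3 in EPDCs, and the groups overlapped by 1 EPDC library (difference −17.9, exact permutation p = 0.0238).

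Beyond the far end of *Pdgfb*, 5 regions lay in introns of *Cbx7*, and 1 of them was called between stages. The region at 64.2 kb scored between 86.8 and 93.4 in all 9 libraries. The region at 68.7 kb scored 72.5 to 87.1 in the epicardium, 74.0 in EPDC E13.5 sample 2 and 0 in the other EPDC libraries. The called region, at 53.2 kb and chosen after its values were seen, scored 61.2, 62.3 and 58.0 at E11.5, 0 in every E17.5 library and 52.9, 48.7 and 46.0 in EPDCs.

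*Pdgfc* (chr3:81036416-81214040, plus strand) encodes a ligand of PDGFRα and had no region called in either direction between EPDCs and epicardium. Its promoter scored 86.2, 85.4 and 84.8 at E11.5, 84.1, 77.5 and 83.6 at E17.5 and 87.7, 83.4 and 88.7 in EPDCs. The intronic region 22.3 kb into the gene scored 86.2, 88.5 and 89.1 at E11.5, with 78, 106 and 94 fragments, and was called in no E17.5 library, a difference of −87.9 (exact permutation p = 0.10). In EPDCs it was called in the E12.5 library (61.7, with 33 fragments) and in neither E13.5 library. The upstream region at −18.6 kb stayed between 79.8 and 93.0 throughout, and its stage difference of −2.8 did not keep its direction on every scale. The intronic region at 3.1 kb was called in 5 epicardial libraries, between 27.1 and 45.1, and in no EPDC library.

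*Pdgfd* (chr9:6168584-6378850, plus strand), whose product binds PDGFRβ, had its promoter called in every library but few other regions at E17.5. Summits were called in 14, 16 and 16 of its 19 regions by the E11.5 libraries, in 5, 7 and 6 by the E17.5 libraries and in 6, 6 and 9 by the EPDC libraries. The strongest of the intronic regions, 118.3 kb into the gene and 17.1 kb from *Ddi1*, scored 86.6, 88.6 and 89.9 at E11.5, 0 in every E17.5 library and 84.5, 75.9 and 56.4 in EPDCs. It was supported by 94, 124 and 112 fragments at E11.5 and by 78, 63 and 81 in EPDCs. The region at 101.5 kb, 0.2 kb from *Ddi1*, scored 57.7, 54.2 and 43.2 at E11.5, 0 in every E17.5 library and 0, 64.4 and 52.9 in EPDCs.

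The region 239.6 kb from the *Pdgfd* start, past the end of the gene, also had no summit at E17.5, but ranked highest in EPDCs. It scored 49.7, 52.3 and 62.5 at E11.5, 0 in every E17.5 library and 79.6, 74.3 and 75.4 in EPDCs, which stood above every epicardial library (difference 49.0, exact permutation p = 0.0238). Over the 6 genes, 8 regions were called in every E11.5 and every EPDC library and in no E17.5 library, 3 of them at *Pdgfd* and 3 at *Pdgfrb*, against 3.49% of all regions.

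Among the receptors, *Pdgfra* (chr5:75152292-75198215, plus strand) had a promoter of low rank and regions of higher rank around it. Its promoter region by the rule lay 1.0 kb upstream and scored 31.0, 31.8 and 0 at E11.5, 0, 44.3 and 56.5 at E17.5 and 53.0, 51.9 and 54.7 in EPDCs. The EPDC libraries lay close together and the epicardial libraries spread from 0 to 56.5, so the groups overlapped (difference 25.9, exact permutation p = 0.119). Where called, the promoter summit held 70 and 81 fragments at E11.5, 73 and 77 at E17.5 and 66, 100 and 288 in EPDCs. These stood only 1.99 to 3.23 times over the local background, so the low rank does not mean few fragments.

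A separate region 0.1 kb upstream of the annotated *Pdgfra* start (chr5:75151967-75152467), picked out after its values were seen, was called only in EPDCs. It scored 36.7, 39.7 and 41.0 there, with 54, 89 and 259 fragments, and 0 in all 6 epicardial libraries. Its scores were low, and with a −log10 q of at least 5 the groups overlapped. The bases upstream of the start in RefSeq (chr5:75152001-75152250, GRCm38.p6, plus strand) lie within that region and held no match to the 9 motifs, whose shares among the same window of 32851 RefSeq promoters ranged from 1.12% (T-box) to 32.7% (SP/KLF).
Pdgfra upstream: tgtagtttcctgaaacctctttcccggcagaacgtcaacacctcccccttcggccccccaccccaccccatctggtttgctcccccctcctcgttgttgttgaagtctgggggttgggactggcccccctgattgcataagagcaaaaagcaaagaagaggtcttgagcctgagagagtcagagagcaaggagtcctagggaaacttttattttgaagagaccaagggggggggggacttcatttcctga

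Of 8 regions in *Pdgfra* introns called in an epicardial library, 3 were higher and 2 lower at E17.5, against 18.2% and 26% of all regions. The region at +33.5 kb scored 69.8, 72.7 and 78.2 in the E17.5 libraries, with 36, 84 and 79 fragments, and was called in none of the other 6 libraries. The region at +32.0 kb scored 67.7, 67.4 and 68.9 at E17.5, with 34, 73 and 59 fragments, and likewise 0 elsewhere. Their E17.5 minus E11.5 differences were 73.6 and 68.0 (exact permutation p = 0.10 for each), and both regions kept the call under every alternative run. Over the 6 genes, 5 regions were called in every E17.5 library and in no other, 3 of them in *Pdgfra*, against 2.98% of all regions.

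Other *Pdgfra* regions differed in where they ranked highest. The region 42.8 kb upstream (chr5:75109288-75109788), which lies nearer to *Gsx2* and was chosen after its values were seen, scored 44.2, 26.8 and 38.7 at E11.5, 0 in every E17.5 library and 75.4, 79.1 and 74.4 in EPDCs (EPDC minus epicardium 58.0). The intronic region at 2.8 kb, chosen likewise, scored 65.8, 69.2 and 64.9 in EPDCs and at most 36.5 in the epicardium, but the groups overlapped on the scales of fold enrichment and of fragments. The region 3.4 kb upstream scored 73.9, 56.1 and 66.3 at E11.5, 54.3, 32.1 and 50.7 at E17.5 and 71.5, 72.6 and 71.3 in EPDCs, which overlapped the epicardium. Its stage difference of −19.8 turned to 0.85 when summits were ranked by fold enrichment.

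The region 4.1 kb into *Pdgfra*, within 1 kb of another annotated coding start of the gene, was called in all 9 libraries. It scored 74.4, 68.7 and 64.7 at E11.5, 84.7, 74.2 and 79.5 at E17.5 and 68.2, 69.9 and 65.2 in EPDCs, with overlapping groups. The upstream region at −8.9 kb was also called in all 9, between 66.6 and 83.3.

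*Pdgfrb* (chr18:61045150-61085061, plus strand) combined a steady promoter with the largest number of regions higher in EPDCs, 9 of 40. The region 3.6 kb upstream scored 49.9, 54.2 and 47.9 at E11.5, 0 in every E17.5 library and 91.7, 89.3 and 90.0 in EPDCs. Its EPDC minus epicardium difference was 65.0 (exact permutation p = 0.0238), and its summit held 57, 72 and 56 fragments at E11.5 and 191, 227 and 590 in EPDCs. The fold enrichments there were 3.22, 4.06 and 3.81 at E11.5 and 10.75, 8.0 and 7.31 in EPDCs.

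Of 13 regions in *Pdgfrb* introns, 5 ranked higher and 1 lower in EPDCs, against 12.1% and 8.22% of all regions. The region at 9.5 kb scored 88.8, 90.3 and 86.1 in EPDCs and 26.2, 27.6 and 0 at E11.5, with 0, 13.8 and 0 at E17.5 (difference 77.1, exact permutation p = 0.0119). The region at 14.6 kb scored 71.7, 75.6 and 68.3 in EPDCs and was called in no epicardial library. Of their neighbours, chosen after their values were seen, the region at 12.2 kb scored 70.2, 71.1 and 61.1 in EPDCs and was called in 1 epicardial library (E17.5 replicate 3, 32.0), whereas the region at 11.4 kb ran the other way, with 64.4 to 77.7 in the epicardium and 36.8, 0 and 29.5 in EPDCs.

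**Figure D4:**
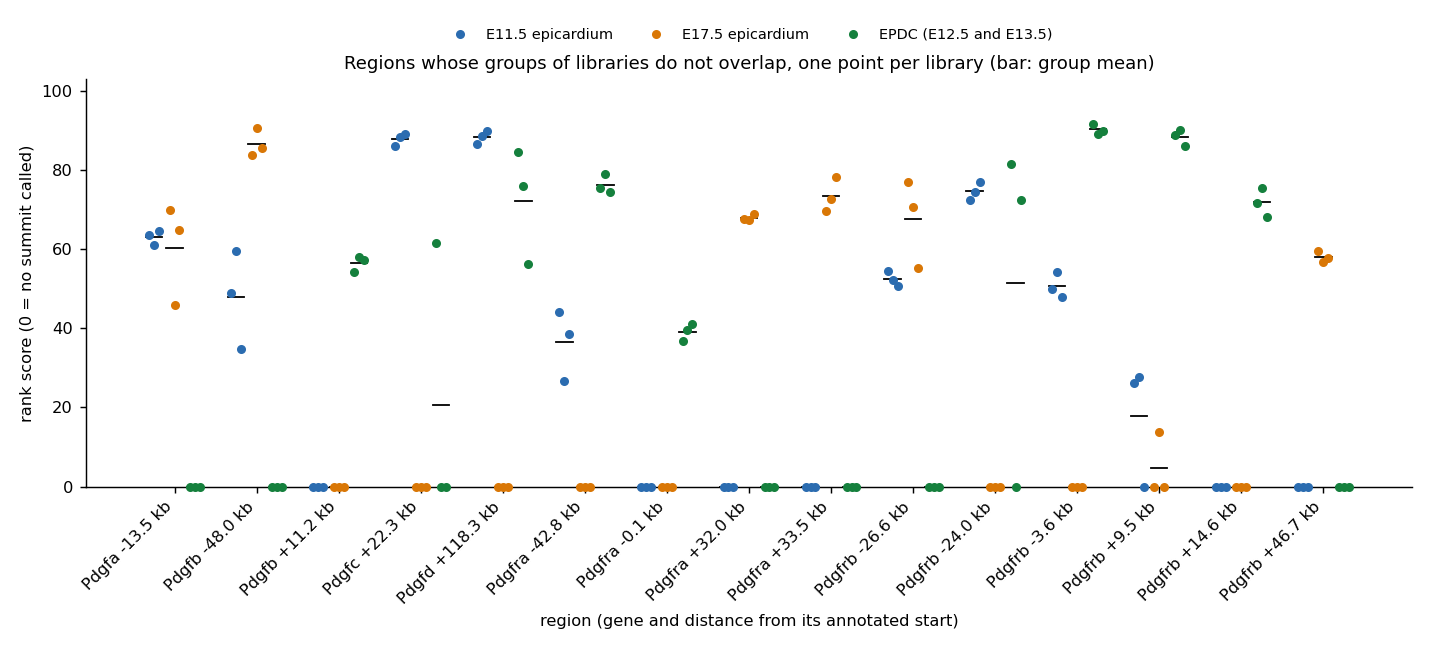
Rank score (vertical axis, 0 where no summit was called) of regions whose groups of libraries did not overlap in at least 1 comparison (horizontal axis, gene and distance from the annotated start), with 1 point per library and a bar at the group mean, for E11.5 epicardium, E17.5 epicardium and EPDCs. The *Pdgfra* regions at +32.0 and +33.5 kb lie between 67.4 and 78.2 at E17.5 and at 0 elsewhere, and the *Pdgfrb* region at −3.6 kb lies between 89.3 and 91.7 in EPDCs and at 0 at E17.5.

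Around *Pdgfrb*, regions nearer to other genes moved as well. The region at −24.0 kb, in an intron of *Cdx1*, scored 72.5, 74.6 and 77.1 at E11.5, 0 in every E17.5 library and 81.7, 0 and 72.4 in EPDCs. The region at −26.6 kb scored 54.6, 52.2 and 50.7 at E11.5, against 77.0, 70.7 and 55.4 at E17.5 and was called in no EPDC library, and its stage difference was lost on the scales of depth-normalized score and of fragments. The region at −43.7 kb, in an intron of *Slc6a7*, scored 73.1, 81.8 and 77.5 at E11.5, against 92.4, 95.2 and 93.2 at E17.5, above the EPDC scores of 79.6, 80.2 and 84.4.

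Downstream of *Pdgfrb*, towards the macrophage receptor gene *Csf1r*, the region at 82.5 kb scored 92.8 to 97.0 in the epicardium and 81.1, 73.0 and 64.0 in EPDCs (difference −22.5, exact permutation p = 0.0119). The region at 46.7 kb was called at 59.5, 56.8 and 57.9 in E17.5 libraries only. It adjoined a region at 47.4 kb called in all 9 libraries between 81.5 and 92.5, and when whole peak intervals were compared in place of summits its stage difference of 58.1 became −5.21, so the call concerns the place of a summit inside a broader peak.

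The other genes of the pathway were read at their promoters from a list of 45 genes, of which 44 had a promoter region and 39 were called in all 9 libraries. Between stages 9 were higher and 5 lower at E17.5, and between populations 7 were higher and 4 lower in EPDCs, with a median difference of 0.0 in both comparisons. Among all promoters 23.9% were higher and 16.9% lower between stages, and 9.79% higher and 10.4% lower between populations, so the stage calls of the list stood at or below the background. Among ligand-processing genes, *Plat* and *Plau*, whose proteases can activate PDGF-C and PDGF-D, ranked above 91 in every library, and *Sparc*, whose product binds PDGF, scored 45.7 ± 6.6 (SD, n = 3) at E11.5, 0 in every E17.5 library and 42.5 ± 5.5 in EPDCs. *Nrp1*, a co-receptor, scored 63.5 ± 9.2 (n = 6) in the epicardium and 80.1 ± 0.8 (n = 3) in EPDCs.

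Of the 24 adaptors and kinases, 5 were higher and 4 lower at E17.5, near the shares of 23.9% and 16.9% over all promoters. *Src*, a kinase recruited by both receptors, scored 22.3 ± 5.0 at E11.5, 77.3 ± 2.1 at E17.5 and 14.2 ± 16.6 in EPDCs (SD, n = 3 each), and *Akt1*, a survival kinase, 82.8 ± 1.6, 62.6 ± 2.1 and 71.0 ± 2.3. Among the 5 early response targets, *Egr1* and *Myc* were higher in EPDCs (*Egr1* 87.4 ± 1.3 against 76.0 ± 5.8), where 9.79% of all promoters were higher. The median difference of these 5 was −0.2. The promoters of *Map2k1* and *Cbl* scored 97.5 ± 0.5 and 97.6 ± 0.2 in EPDCs and 0 in every epicardial library, and whether the lists were made alike was not tested.

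For the members whose promoter scores varied most, the genes of most similar pattern over the 9 libraries were sought among 2877 promoters, as a description in which all points share their libraries. For *Pdgfb* they were *Syne4* (Pearson's r 0.96), *Pkp1* (0.94) and *Arhgef33* (0.94). For *Pdgfra* they were *Mnx1*, *Tmem200a* and *Gm9767* (0.95 each), of which *Tmem200a* and *Gm9767* share a promoter region. The promoters of *Pdgfa*, *Pdgfc*, *Pdgfd* and *Pdgfrb* varied too little for the search, with SDs of 7.5, 3.2, 2.4 and 2.3.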

How the data were processed

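Libraries were grouped by the sample labels (E11.5 epicardium, E17.5 epicardium, EPDC). The authors aligned reads to mm10 and ran MACS2 2.2.9.1 on paired fragments (q-value threshold 0.01, all summits within a peak reported). The deposited lists give, per summit, a fold enrichment over local background (a ratio) and −log10 p and −log10 q values, with no counts and no normalization between libraries. The authors' edgeR test on windows starts from reads and was not repeated.

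Summits on chromosomes 1 to 19, X and Y were ranked within each library. Summits extended to 501 bp were reduced to non-overlapping regions in order of depth-normalized −log10 p. Of 886 summits near the PDGF genes, 810 lay within 250 bp of a region's centre and 76 did not. Fragments at a summit were solved from fold enrichment and −log10 p (89.9% to 99.4% of summits within 0.01). Annotation was GENCODE M21 and sequence GRCm38.p6, the same build. Steps were tested on simulated data.

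Named regions were each gene's promoter, the 3 strongest distal regions per gene, and the 3 largest differences per comparison and direction. Others are marked as chosen after their values were seen. Genes of similar pattern were the 3 highest correlations among promoters with an SD of at least 10. Members and lists were chosen with earlier results of these data known. P-values between stages reflect the spread between pooled-heart samples, and those for EPDCs also reflect the difference between the 2 epicardial stages. Depth is known only through the recovered fragments. Alternatives were other scales, equal list lengths, a −log10 q of at least 5, interval overlap, 150 bp matching, libraries left out, regions called in at least 3 libraries, regions within 20 kb, any coding start and the replicate block. Python 3.11.15, numpy 2.4.6, pandas 2.3.3, scipy 1.17.1 and matplotlib 3.10.9 were used.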

Additional observations from a re-analysis of the deposited data

Results flagged for a closer look

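Signal outside the analysed chromosomes appeared in the EPDC lists alone. They held 268 (the E12.5 list), 263 (E13.5 sample 1) and 252 (sample 2 of that stage) summits on mitochondrial and unplaced sequences, against 0 in each of the 6 epicardial lists, and these summits entered no comparison. On the analysed chromosomes the highest −log10 p was 42714.1, 20589.5 and 70107.4 in the same EPDC lists and 559.3 to 891.3 in the epicardial lists. Those strongest summits stayed in the rankings and in the depth-normalized score, and their effect was not tested.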

How the results depend on the processing

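Counts of stage calls stayed within 1.5 times their main values under every alternative run. With 1 library left out, higher regions at E17.5 numbered 25 to 36 (20.3% to 23.6% of all regions) and lower regions 33 to 35 (28.4% to 32.5%), and in EPDCs higher regions numbered 18 to 25 (at most 19.3%) and lower regions 14 to 21 (8.77% to 10%). On log2 fragments over background, EPDC calls became 11 higher and 26 lower, and within 20 kb of the genes 9 were lower, where fewer regions were counted. The labels describe independent pooled samples, and same-numbered E11.5 and E17.5 libraries correlated at 0.03, 0.07 and −0.06 in their deviations from the group means. The numbers therefore pair nothing, and the replicate block gave 30 higher and 34 lower regions, with a smallest p of 0.25.

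For the named regions and some of those chosen after their values were seen, 1268 of 1362 values counted as unchanged. Of the rest 20 lost the call, 63 gained one, 3 moved by more than the spread and changed sign, and 8 turned. Differences that stayed uncalled on the scales of fold enrichment, depth-normalized score or fragments counted as unchanged without a check of direction or size. When summits were ranked by fold enrichment the stage difference became 4.9 at Pdgfb +64.2 kb, 0.5 at Pdgfc −18.6 kb, 2.16 at the *Pdgfc* promoter and 0.85 at Pdgfra −3.4 kb. On fragments over background it became 0.26 at Pdgfrb +47.4 kb and 0.44 at Pdgfa +8.4 kb (chosen after its values were seen), by interval overlap −5.21 at Pdgfrb +46.7 kb, and with 1 library left out it ranged from −7.63 to 4.29 at Pdgfa −13.5 kb, the latter without E17.5 replicate 2. The cause was not tested. The strongest region within 1 kb of any coding start moved the EPDC difference from 9.27 to −8.45 at the *Pdgfa* promoter and from 25.92 to −6.6 at that of *Pdgfra*, and a match within 150 bp moved the stage difference from 3.45 to −49.47 at Pdgfa +27.2 kb. Short lists hide weak summits, since the weakest summit of the shortest list scored 33.5, so regions under that score cannot be compared with that library.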
